A study of Saccharomyces cerevisiae with 18 samples.

Results

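The 10 genes described here encode the ring-shaped Mcm2-7 helicase and the GINS complex of budding yeast, Saccharomyces cerevisiae. They were chosen by systematic name: MCM2, MCM3, MCM4, MCM5, MCM6 and MCM7 for the ring, and PSF1, PSF2, PSF3 and SLD5 for GINS. All 10 have a row among the 5143 rows of the RNA-seq count table, and all 10 passed the filter on low counts that left 5133 rows. The compared groups were 3 libraries from ten1-31 cultures and 3 from WT cultures. The ten1-31 strain carries a temperature-sensitive allele of TEN1, whose product belongs to the telomeric Cdc13-Stn1-Ten1 complex. The labels give no allele other than ten1-31, no mating type and no other genotype of either strain. Every RNA-seq culture, WT included, was kept at 25 °C overnight and grown at 34 °C for nearly 5 h before total RNA was taken. The series holds 18 samples, and its 12 ChIP-seq and input samples were not used here.

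The Mcm2-7 ring is the motor of the replicative helicase, which unwinds DNA ahead of the replication fork. In G1 the origin recognition complex, Cdc6 and Cdt1 load inactive Mcm2-7 rings around DNA at origins. In S phase the kinases Cdc7-Dbf4 and Cdc28, with Sld3, Sld2 and Dpb11, lead to the joining of Cdc45 and of GINS, a complex of Sld5, Psf1, Psf2 and Psf3, which turns the ring into the active CMG helicase. In budding yeast the MCM genes are known as genes of the interval between mitosis and G1, under the transcription factor Mcm1 and the repressors Yox1 and Yhp1. The measurements below are of transcripts, not of proteins.

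The libraries held 10469608 to 13561078 counts in ten1-31 and 11635219 to 14442999 in WT. Levels are given in CPM, the count scaled to library size by the TMM method, and differences as the log2 fold change of ten1-31 over WT from edgeR. A gene was called when its p-value, adjusted over all 5133 rows, was under 0.05. By this rule 50.5% of all rows were called, 24.3% as higher and 26.2% as lower in ten1-31. Scaled by library size alone, 60.4% of the called rows were higher, beside 48.2% with TMM. TEN1 itself was at 30.1 ± 0.630 CPM in ten1-31 and 8.85 ± 1.57 CPM in WT (SD, n = 3 each). The labels do not say whether replicates came from separate starting cultures, so the p-values measure the spread between these libraries, which may be technical. In bulk RNA, fewer cells with a transcript and less of it per cell cannot be told apart.

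PSF1 and PSF2, which encode a pair of the GINS subunits, fell to 58.4% and 55.8% of their WT levels in ten1-31. MCM2 rose 1.26-fold, and MCM4 was called lower at 88.0% of its WT level. SLD5 was 1.23-fold of WT and did not pass the threshold, and MCM3, MCM5, MCM6, MCM7 and PSF3 lay between 91.5% and 106% of WT without a call. Thus 4 of the 10 genes were called, 1 higher and 3 lower. The ranges of ten1-31 and WT libraries were separate in 5 of the 10 genes and in 60.5% of all rows. The share called is not above the 50.5% of all rows called, so the number of calls is no result about these genes. The results below therefore concern which subunits differed and by how much.

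**Figure D1:**
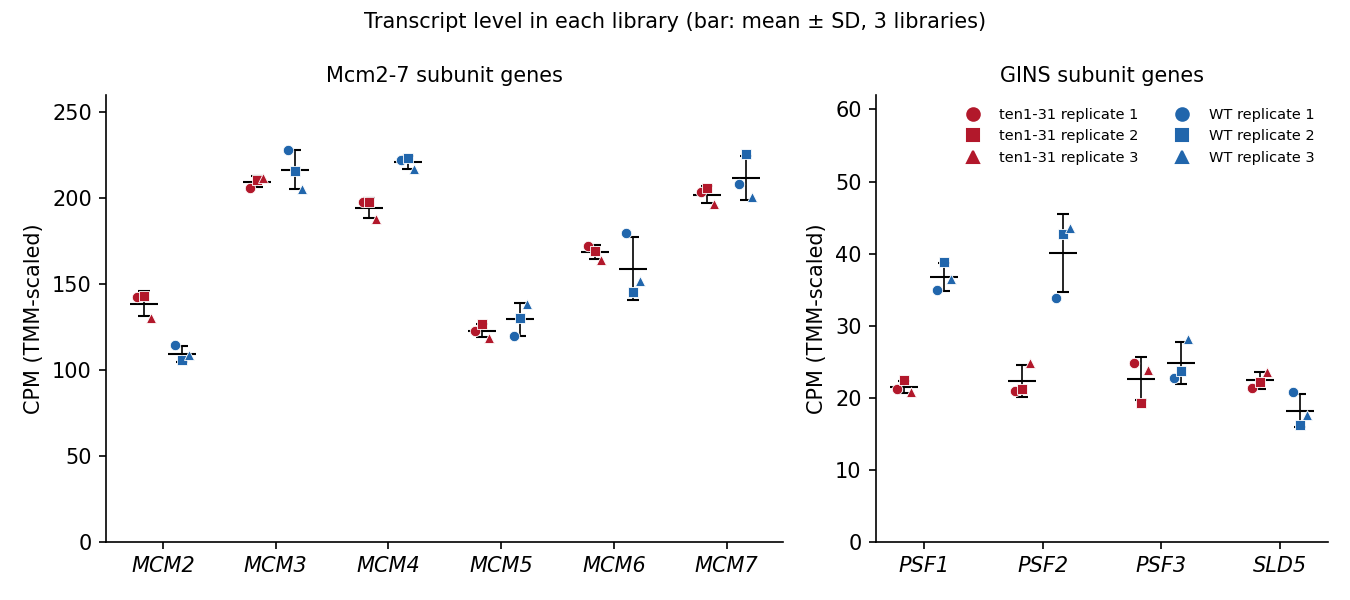
Level of each subunit gene in CPM (TMM-scaled, vertical axis from 0) in the 3 ten1-31 libraries (red) and the 3 WT libraries (blue), with the mean and SD as a bar; the panels have different vertical scales. The ten1-31 points lie below all WT points for PSF1, PSF2 and MCM4 and above them for MCM2 and SLD5.

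PSF1 (YDR013W, chromosome IV, 473157 to 473783 in R64) encodes the GINS subunit through which Dpb2 ties DNA polymerase epsilon to the helicase. Its levels were 21.2, 22.5 and 20.8 CPM in ten1-31 replicates 1 to 3, against 35.0, 38.8 and 36.4 CPM in WT replicates 1 to 3. The genotypes were well apart: the highest ten1-31 library was at 22.5 CPM and the lowest WT library at 35.0 CPM. The log2 fold change was -0.77 ± 0.08 (SE; edgeR, adjusted p = 0.000268), with a 95% interval from -0.96 to -0.59. Only 4.01% of the rows tested had a lower log2 fold change.

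PSF2 (YJL072C, chromosome X, 305221 to 305862) encodes a GINS subunit that lies against the Mcm2-7 ring in structures of the helicase. It was at 20.9, 21.2 and 24.8 CPM in ten1-31 replicates 1 to 3 and at 33.9, 42.8 and 43.5 CPM in WT replicates 1 to 3. The WT libraries spread more than the mutant ones, with WT replicate 1 the lowest of them, yet no ten1-31 library reached it. The log2 fold change was -0.84 ± 0.12 (SE; edgeR, adjusted p = 0.00114), with a 95% interval from -1.12 to -0.56. Without WT replicate 1 it was -0.95 (edgeR, adjusted p = 0.000342).

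PSF3 (YOL146W, chromosome XV, 48864 to 49448), another GINS subunit gene, had 24.8, 19.3 and 23.8 CPM in ten1-31 replicates 1 to 3, against 22.7, 23.7 and 28.1 CPM in WT replicates 1 to 3. The libraries of the genotypes overlapped. The log2 fold change was -0.13 ± 0.13 (SE; edgeR, adjusted p = 0.425), and its 95% interval from -0.42 to 0.17 covers levels between 0.746 and 1.12 of WT. A fall of the size seen for PSF1 or PSF2 thus lies outside the interval for PSF3.

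SLD5 (YDR489W, chromosome IV, 1431012 to 1431896) encodes the GINS subunit bound by Ctf4, a hub protein of the fork. It stood at 21.4, 22.2 and 23.6 CPM in ten1-31 replicates 1 to 3 and at 20.7, 16.2 and 17.6 CPM in WT replicates 1 to 3. All ten1-31 libraries were above all WT libraries, but WT replicate 1 was close to them. The log2 fold change of 0.30 ± 0.11 (SE) missed the threshold (edgeR, adjusted p = 0.0548). SLD5 was called higher without WT replicate 1, at 0.40 (edgeR, adjusted p = 0.00827), and when scaled by library size alone, at 0.38 (edgeR, adjusted p = 0.0205).

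The 4 GINS genes together had 88.4, 85.1 and 93.1 CPM in ten1-31 replicates 1 to 3, against 112, 121 and 126 CPM in WT replicates 1 to 3. The summed levels did not overlap. They hide unlike subunits, since PSF1 and PSF2 were called lower while PSF3 and SLD5 were not. The median log2 fold change of the 4 genes, -0.45, falls in the gap between these pairs and describes none of them; that of all rows tested was -0.0038.

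Among the ring genes, MCM2 (YBL023C, chromosome II, 174920 to 177526) was the one called higher. Its product has a tail that binds histones H3 and H4 and forms, with Mcm5, the gate through which DNA enters the ring. It was at 143, 143 and 130.1 CPM in ten1-31 replicates 1 to 3 and at 115, 106 and 108 CPM in WT replicates 1 to 3. Every ten1-31 library was above every WT library. The log2 fold change was 0.34 ± 0.07 (SE; edgeR, adjusted p = 0.00603), with a 95% interval from 0.17 to 0.50.

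MCM4 (YPR019W, chromosome XVI, 596750 to 599551) encodes the subunit whose tail is a main target of the kinase Cdc7-Dbf4. It was at 198, 198 and 188 CPM in ten1-31 replicates 1 to 3, against 222, 223 and 217 CPM in WT replicates 1 to 3. The genotypes did not overlap. The log2 fold change was small, -0.18 ± 0.06 (SE; edgeR, adjusted p = 0.0413). The call was lost when any library other than WT replicate 1 was left out (edgeR, adjusted p up to 0.125), with the replicate number as a block (edgeR, adjusted p = 0.0703) and under scaling by library size alone (edgeR, adjusted p = 0.181).

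MCM3 (YEL032W, chromosome V, 86937 to 89852) encodes the subunit whose end docks on Cdc6 and the origin recognition complex during loading. It was at 206, 211 and 212 CPM in ten1-31 replicates 1 to 3 and at 228, 216 and 205 CPM in WT replicates 1 to 3. MCM5 (YLR274W, chromosome XII, 691555 to 693882), the partner of Mcm2 at the gate, had 123, 127 and 119 CPM in ten1-31 replicates 1 to 3, against 119.5, 130.3 and 138 CPM in WT replicates 1 to 3. For both genes the genotypes overlapped. The 95% intervals of the ratio to WT were 0.867 to 1.08 for MCM3 and 0.840 to 1.07 for MCM5.

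MCM6 (YGL201C, chromosome VII, 117854 to 120907), whose product binds Cdt1, was at 172, 169.5 and 164 CPM in ten1-31 replicates 1 to 3. In WT replicates 1 to 3 it was at 179.8, 146 and 152 CPM, so that WT replicate 1 was above and the other WT libraries below the mutant. Its log2 fold change was 0.08 ± 0.09 (SE; edgeR, adjusted p = 0.473) with all libraries and 0.18 without WT replicate 1 (edgeR, adjusted p = 0.0338), where it would be called higher. MCM7 (YBR202W, chromosome II, 625772 to 628309), which encodes the subunit marked with ubiquitin when the helicase is unloaded, had 204, 206 and 196 CPM in ten1-31 replicates 1 to 3, against 208, 226 and 201 CPM in WT replicates 1 to 3. These overlapped as well, and the 95% interval of the ratio to WT was 0.851 to 1.07. The signs of the uncalled MCM3, MCM5 and MCM7 differences turned under scaling by library size alone, where all log2 fold changes shifted by a median of 0.08.

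The 6 ring genes summed to 1045, 1053 and 1009 CPM in ten1-31 replicates 1 to 3 and to 1073, 1047 and 1021 CPM in WT replicates 1 to 3. The sums overlapped, in contrast to those of GINS. The median log2 fold change of the ring genes was -0.06. Placed among all rows, PSF1 and PSF2 stand in the lower tail of the changes while MCM3, MCM4, MCM5, MCM6, MCM7 and PSF3 lie between the quartiles of all rows, which are -0.28 and 0.29. MCM2 and SLD5 lie just above the upper quartile.

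**Figure D2:**
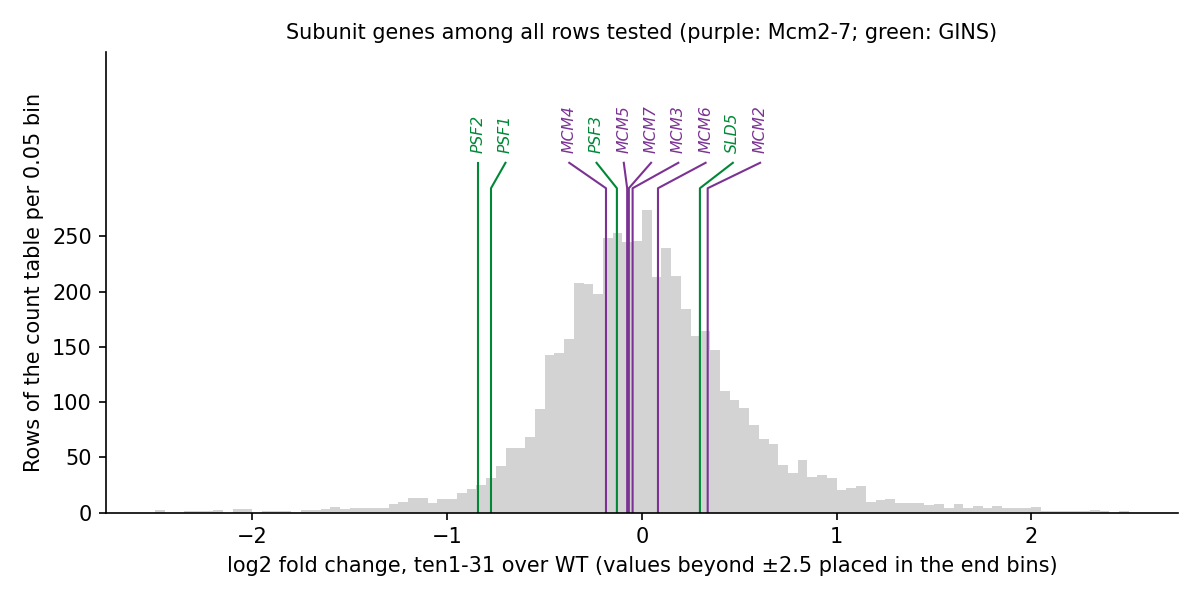
Distribution of the log2 fold change of ten1-31 over WT across the 5133 rows tested (grey, rows per bin), with lines at the 6 Mcm2-7 genes (purple) and the 4 GINS genes (green). PSF2 at -0.84 and PSF1 at -0.77 lie in the lower tail, and MCM2 at 0.34 is the rightmost line.

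Because the subunits of each complex are present in equal number in the protein assembly, their transcript levels were also compared with each other, per kilobase of coding length. In ten1-31 the GINS order was PSF3 at 38.7 ± 5.06, PSF2 at 34.8 ± 3.42 and PSF1 at 34.2 ± 1.39 CPM per kb (SD, n = 3), with overlap between these neighbours. SLD5 was lowest at 25.3 ± 1.28 CPM per kb (SD, n = 3), without overlap with PSF1. In WT, PSF2 and PSF1 were the most abundant GINS transcripts, at 62.4 ± 8.36 and 58.6 ± 3.07 CPM per kb (SD, n = 3), and their libraries overlapped. PSF3 at 42.5 ± 4.92 and SLD5 at 20.6 ± 2.61 CPM per kb (SD, n = 3) followed there, each without overlap with the gene above it. The median over 5102 rows with a length was 57.9 CPM per kb in ten1-31 and 57.2 CPM per kb in WT, so PSF1 and PSF2 lay below it in ten1-31 and just above it in WT.

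Among the ring genes in ten1-31, MCM7 was highest at 79.6 ± 1.96 CPM per kb, then MCM3 at 71.8 ± 1.06 and MCM4 at 69.3 ± 2.07 CPM per kb (SD, n = 3), with no overlap from each to the next. MCM6, MCM2 and MCM5 followed at 55.2 ± 1.34, 53.1 ± 2.82 and 52.8 ± 1.67 CPM per kb (SD, n = 3), with overlap between neighbours. In WT, MCM7, MCM4 and MCM3 overlapped in turn at 83.4 ± 5.06, 78.8 ± 1.27 and 74.3 ± 3.93 CPM per kb (SD, n = 3). MCM5 and MCM6 overlapped at 55.6 ± 4.07 and 52.1 ± 5.96 CPM per kb, and MCM2 stood alone at the bottom at 42.0 ± 1.79 CPM per kb (SD, n = 3). By their means, the order of MCM3 and MCM4 and the place of MCM2 were thus not the same in both genotypes. The MCM3 and MCM4 ranges overlapped in WT and nearly touched in ten1-31. There the lowest MCM3 library was at 70.64 and the highest MCM4 library at 70.53 CPM per kb.

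The share of a subunit in the summed counts per kilobase of its complex does not depend on how libraries are scaled. PSF1 took 25.4%, 28.2% and 23.8% of the GINS sum in ten1-31 replicates 1 to 3, against 32.7%, 33.0% and 30.0% in WT replicates 1 to 3. PSF2 took 24.5%, 26.0% and 27.8% in ten1-31 and 30.9%, 35.6% and 35.0% in WT. SLD5 took 18.2%, 19.8% and 19.2% in ten1-31 and 13.7%, 9.79% and 10.3% in WT. Of the 4 GINS genes, PSF1 and PSF2 had lower shares and PSF3 and SLD5 higher ones in ten1-31, each without overlap between the genotypes. As the shares of a complex add up to the whole, they do not vary independently, and they were compared without a test.

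In the ring, MCM2 took 14.2%, 14.1% and 13.4% of the sum in ten1-31 replicates 1 to 3, against 11.2%, 10.5% and 11.0% in WT replicates 1 to 3. MCM4 took 18.3%, 18.1% and 18.0% in ten1-31 and 20.1%, 20.6% and 20.5% in WT. These shares did not overlap, while those of MCM3, MCM5, MCM6 and MCM7 did. The most abundant subunit transcript exceeded the least abundant by 1.49 to 1.55 times in ten1-31 libraries and 1.87 to 2.20 times in WT libraries for the ring. For GINS this ratio was 1.43 to 1.76 in ten1-31 and 2.38 to 3.63 in WT. By counts per kilobase, the subunit transcripts in these libraries were therefore nearer to equal levels in ten1-31 than in WT, for the ring and for GINS. These ratios rest on the same levels as above. MCM7 was the highest ring gene in every library, and MCM2 or MCM5 the lowest. For GINS, PSF1, PSF2 or PSF3 was the highest, and SLD5 was the lowest in every library. Whether unlike genes are counted equally well per kilobase was not tested.

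**Figure D3:**
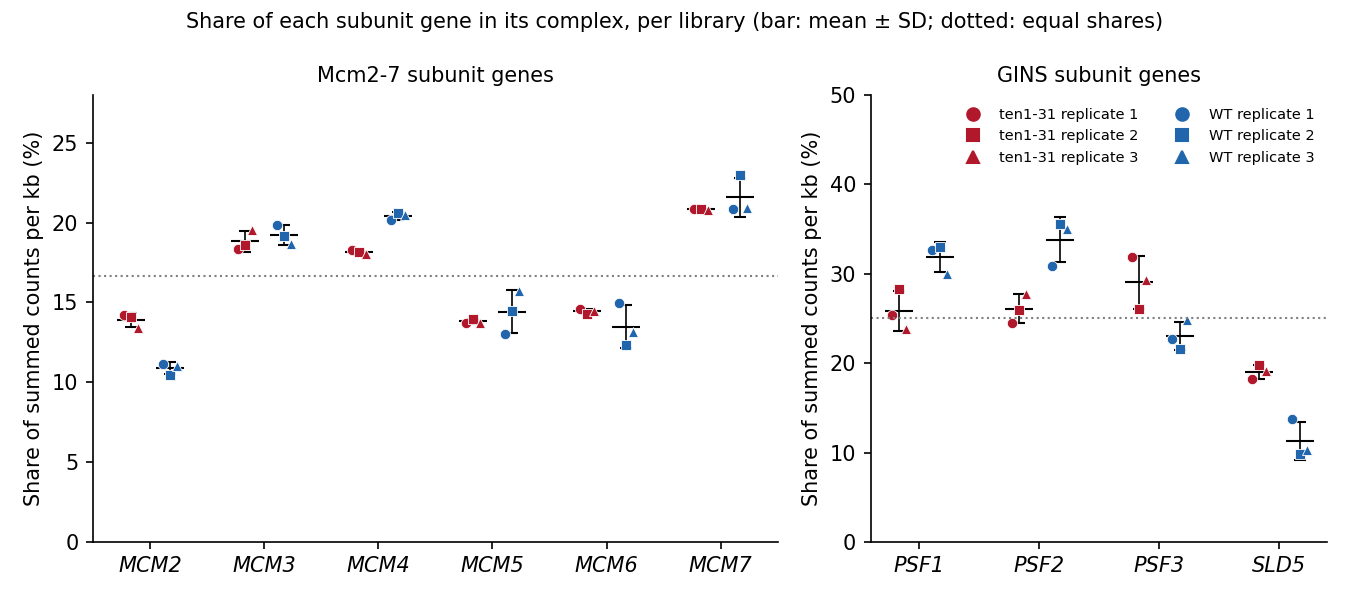
Share of each subunit gene in the summed counts per kilobase of its complex (percent, vertical axis from 0) in the ten1-31 (red) and WT (blue) libraries, with mean and SD; the dotted line marks equal shares. MCM2, PSF3 and SLD5 have higher shares and MCM4, PSF1 and PSF2 lower ones in all ten1-31 libraries than in any WT library.

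Per kilobase, the mean GINS level was 0.518, 0.489 and 0.562 of the mean ring level in ten1-31 replicates 1 to 3, against 0.650, 0.726 and 0.770 in WT replicates 1 to 3. This ratio did not overlap between the genotypes. It was likewise compared without a test.

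The genes that load, activate or accompany the helicase were examined as 3 lists. Of 25 genes, 23 were tested, and 10 were called higher and 3 lower. That is 56.5% called, near the 50.5% of all rows, so the number of calls is again no result about the pathway. The median log2 fold change of the 23 genes was 0.14. The count was sensitive to single libraries, falling to 6 without ten1-31 replicate 1, to 7 without ten1-31 replicate 2 or WT replicate 3, and to 8 without ten1-31 replicate 3 or WT replicate 2.

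Helicase activation genes were called higher in 5 of 6 tested cases, beside 24.3% of all rows, with a median log2 fold change of 0.37. The list is small, and 4 were called higher when any library other than WT replicate 1 was left out. The same number was called higher with upper quartile scaling and at an adjusted p under 0.01. SLD2, which encodes a kinase-regulated partner of Dpb11, was at 54.2 ± 1.53 CPM in ten1-31 and 34.4 ± 3.36 CPM in WT (SD, n = 3 each; edgeR, adjusted p = 0.000782), a log2 fold change of 0.65. CDC7, the kinase that phosphorylates the ring, rose with a log2 fold change of 0.54 (edgeR, adjusted p = 0.00139), and DPB11 with 0.42 (edgeR, adjusted p = 0.00266). DBF4, which encodes the regulatory subunit of Cdc7, rose with 0.26 (edgeR, adjusted p = 0.0348). CDC45, whose product joins the ring together with GINS, was at 67.0, 63.0 and 66.1 CPM in ten1-31 replicates 1 to 3, against 54.3, 51.9 and 51.3 CPM in WT replicates 1 to 3. Its log2 fold change was 0.32 ± 0.07 (SE; edgeR, adjusted p = 0.00671), so that this partner in the CMG helicase was higher in ten1-31 where PSF1 and PSF2 were lower. SLD3 was not called, at a log2 fold change of -0.04. Values of SLD7 and MCM10, also listed, were not analysed here.

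Of the 8 origin licensing genes, 2 were called higher and 2 lower, with a median log2 fold change of -0.03. With 50% called, near the 50.5% of all rows, this count is no result about the licensing genes. The 4 calls became 2 (1 higher, 1 lower) without ten1-31 replicate 1, WT replicate 2 or WT replicate 3. CDC6, which encodes the loading factor and belongs with the MCM genes to the interval between mitosis and G1, was at 46.1 ± 5.66 CPM in ten1-31 and 76.3 ± 3.09 CPM in WT (SD, n = 3 each). Its log2 fold change was -0.73 ± 0.10 (SE; edgeR, adjusted p = 0.000863). TAH11, which encodes Cdt1, the partner that brings Mcm2-7 to origins, was not called, at -0.18 (edgeR, adjusted p = 0.124). Among the origin recognition complex genes, ORC5 and ORC6 rose with log2 fold changes of 0.29 and 0.51 (edgeR, adjusted p = 0.00859 and 0.0220), and ORC3 fell by 0.27 on the log2 scale (edgeR, adjusted p = 0.0294). ORC6 was at 62.7, 60.7 and 42.7 CPM in ten1-31 replicates 1 to 3, so that replicate 3 was close to WT. In WT replicates 1 to 3 it was at 39.1, 36.4 and 41.2 CPM. ORC1, ORC2 and ORC4 were not called.

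Of the 9 fork partners, 3 were called higher and 1 lower, with a median log2 fold change of 0.09. That is 44.4% called, under the 50.5% of all rows, so this count is no result about the fork partners. The subunits of DNA polymerase epsilon, which GINS ties to the helicase, were not alike. POL2, the catalytic subunit, and DPB2, the subunit that binds Psf1, had log2 fold changes of 0.39 and 0.31 (edgeR, adjusted p = 0.0187 and 0.0454). The small histone-fold subunits went the other way, DPB4 with -0.35 (edgeR, adjusted p = 0.0107) and DPB3, not called, with -0.14. MRC1, the checkpoint mediator at the fork, was close to the threshold at 0.33 (edgeR, adjusted p = 0.0484). CTF4, the binding partner of Sld5, had a log2 fold change of 0.22 (edgeR, adjusted p = 0.0653). The 4 fork partner calls became 0 in edgeR without ten1-31 replicate 1 or 2, with 4 and 2 of the 9 genes at an unadjusted p under 0.05. They became 1 without ten1-31 replicate 3 or WT replicate 3, and 2 without WT replicate 2 or with upper quartile scaling. Without WT replicate 1 there were 4 higher and 2 lower calls, and under scaling by library size alone 4 higher and 1 lower.

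**Figure D4:**
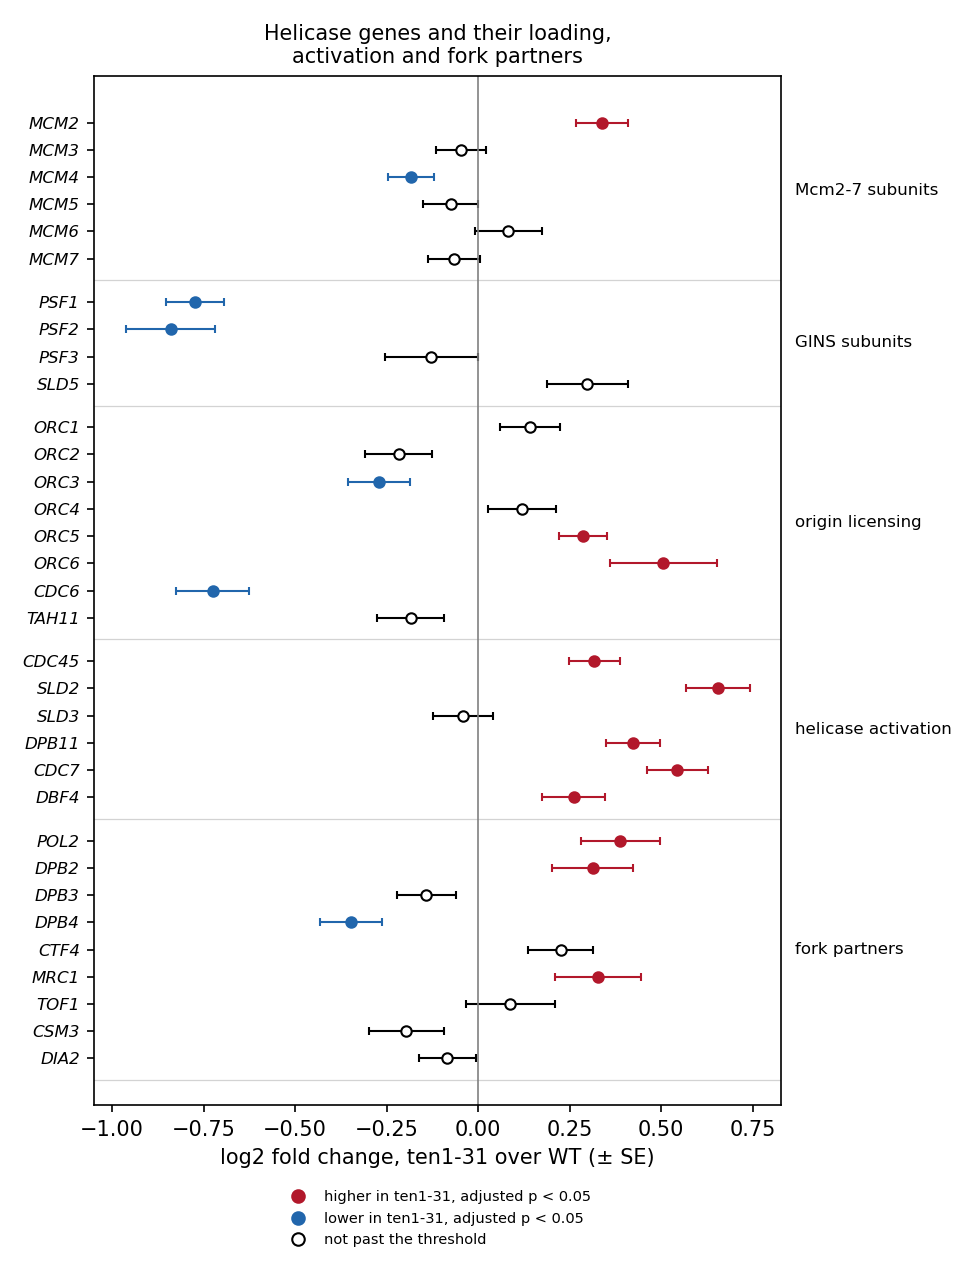
Log2 fold change of ten1-31 over WT with its standard error for the subunit genes and the 23 tested partner genes, grouped by role; filled points passed an adjusted p of 0.05 in edgeR (red higher, blue lower in ten1-31) and open points did not. PSF1 and PSF2 at -0.77 and -0.84 and CDC6 at -0.73 are the lowest points, and SLD2 at 0.65 is the highest.

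The transcription factors known for the MCM genes and for neighbouring cell-cycle intervals were listed as 6 genes, of which 2 were called higher, FKH1 with a log2 fold change of 0.39 and SWI5 with 0.38 (edgeR, adjusted p = 0.0342 and 0.00315). That is 33.3% called, beside 50.5% of all rows, and a single call was left without ten1-31 replicate 1, ten1-31 replicate 3 or WT replicate 3. MCM1 was at 109 ± 2.80 CPM in ten1-31 and 125 ± 8.34 CPM in WT (SD, n = 3 each; edgeR, adjusted p = 0.0521). YOX1 and YHP1, which encode the repressors, had log2 fold changes of -0.20 and -0.12 and were not called.

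A culture holds cells at all cell-cycle stages, so marker genes of the stages are given beside these results. Of the 8 tested genes of the interval between mitosis and G1, 5 were called lower and 2 higher, beside 26.2% and 24.3% of all rows. CDC6, among the lower ones, was also counted with the origin licensing genes. The summed level of the 8 genes was 929 to 948 CPM in ten1-31 and 1122 to 1202 CPM in WT. EGT2 and PCL9 had log2 fold changes of -1.03 and -0.96 (edgeR, adjusted p = 9.51e-05 and 0.000132), whereas SWI4 and CLN3 rose, with 0.72 and 0.79 (edgeR, adjusted p = 0.000395 and 0.000524). EGT2 alone was at 244 ± 9.56 CPM in ten1-31 and 497 ± 39.6 CPM in WT (SD, n = 3 each). Without EGT2 the sums of the list overlapped. The remaining genes included others called lower as well as the higher SWI4 and CLN3. Of 12 tested G1/S genes, 4 were called higher and 1 lower. That is 41.7% called, under the 50.5% of all rows, so this count is no result about the stage. The sums of the 12 genes were 1743 to 1887 CPM in ten1-31 and 1495 to 2085 CPM in WT. CLB6 and CLN2 rose, with log2 fold changes of 1.03 and 0.62, and CLN1 fell, with -0.54 (edgeR, adjusted p = 0.000449, 0.00430 and 0.000984). Without WT replicate 1, 9 of the G1/S genes were called higher, and 2 were when ten1-31 replicate 1, 2 or 3 or WT replicate 3 was left out.

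The core histone genes mark S phase, and their near-identical copies make single values uncertain. Of these 8 genes, 7 were called lower, beside 26.2% of all rows. Their sums were 2033 to 2353 CPM in ten1-31 and 2886 to 3603 CPM in WT, with HTA2, HTA1 and HHT2 at log2 fold changes of -1.20, -0.77 and -0.60 (edgeR, adjusted p = 0.000367, 0.000591 and 0.000851). Of 10 tested G2/M genes, 8 were called higher and 1, CLB1, lower, beside 24.3% and 26.2% of all rows. SWI5, among the higher ones, was also counted with the transcription factors above. The sums of the 10 genes were 2170 to 2267 CPM in ten1-31 and 1451 to 1545 CPM in WT. KIN3, BUD4 and IQG1 had the smallest p-values, with log2 fold changes of 1.34, 1.15 and 0.93 (edgeR, adjusted p = 4.06e-05, 5.32e-05 and 5.45e-05). The GINS and histone sums were thus lower and the G2/M sum higher in every ten1-31 library than in any WT library, while the ring sums overlapped. The M/G1 sum was also lower in every ten1-31 library, but without EGT2 the sums of that mixed list overlapped. The part of stage makeup in the PSF1, PSF2 and MCM2 differences was not tested.

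**Figure D5:**
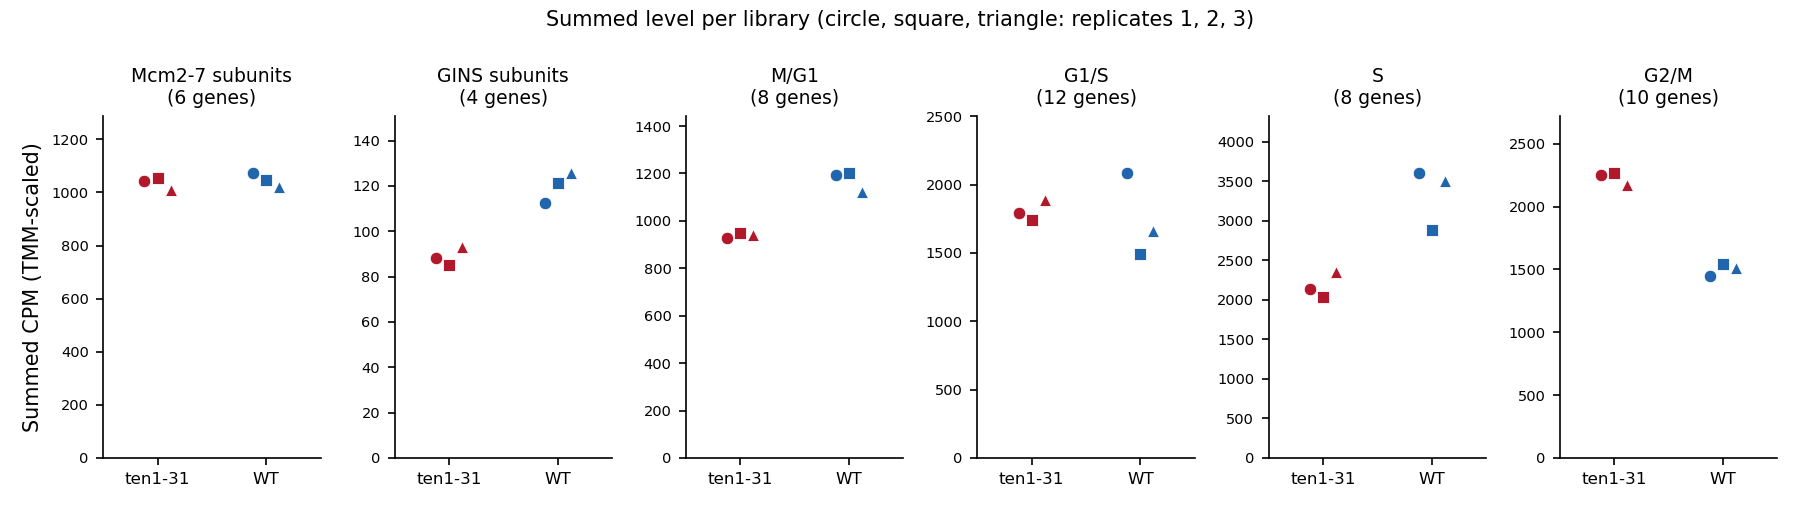
Summed CPM (TMM-scaled, vertical axes from 0) of the ring genes, the GINS genes and 4 lists of cell-cycle stage markers in each ten1-31 (red) and WT (blue) library. The ten1-31 libraries lie below WT for GINS, M/G1 and S, above WT for G2/M, and overlap with WT for the ring genes and G1/S. Without EGT2 the M/G1 sums overlap, in a list with genes called in both directions.

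The rows beside the subunit genes were read because the counting could join neighbouring genes. None of the 10 genes overlaps another RefSeq gene. PSF1 starts 215 bases after the end of RPL4B, a ribosomal protein gene on the same strand by its name, whose log2 fold change was -0.72 (edgeR, adjusted p = 0.000661). On its other side RAD61, a cohesin regulator, had -0.28 (edgeR, adjusted p = 0.0243). PSF1 also lies 10640 bases from TRP1, which was 75.5-fold higher in ten1-31. The labels give no TRP1 genotype, and whether the strains differ beyond the ten1-31 allele was not tested. Between TRP1 and RPL4B, the rows of GAL3 and SNQ2 were higher in ten1-31, with log2 fold changes of 1.18 and 0.46, so that the rows called lower began with RPL4B. A part of the neighbouring row in the PSF1 difference was not tested.

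PSF2 lies 102 bases from JEM1, a chaperone gene with a log2 fold change of 0.79, and 269 bases from ARG2, an arginine synthesis gene with -0.66 (edgeR, adjusted p = 0.00121 and 0.00133). Both are named as genes of the opposite strand, and they moved in opposite directions, ARG2 downward like PSF2. The strand setting of the counting is not known, and a part of these rows in the PSF2 difference was not tested. MCM2 lies between NCL1 with -0.40 and PIM1 with 0.55 (edgeR, adjusted p = 0.0259 and 0.00114). PIM1, 347 bases away, is on the same strand as MCM2 by its name and rose like MCM2, and NCL1 is on the opposite strand. A part of the PIM1 row in the MCM2 difference was not tested. MCM4 lies between RLF2 and ATP20, neither of which was called, at 0.10 and -0.0011. By chromosome, the median log2 fold change of the rows was between -0.09 and 0.02 for each of the 8 chromosomes that hold these genes.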

How the data were processed

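RNA-seq libraries of 3 ten1-31 and 3 WT cultures were made from rRNA-depleted total RNA with a strand-specific kit, per the labels' protocols. The authors deposited read counts per gene in a single table. The submitters' processing notes name FastQC, cutadapt, Trimmomatic, TopHat2, Bowtie2 and featureCounts and the builds R64 and sacCer3, without roles, versions or settings. The strand setting of the counting and any row filter are not given in the sources used here.

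Symbols, coordinates and lengths came from the RefSeq gene table of R64. The lengths of all 10 subunit genes are divisible by 3, as are 96.3% of those of its protein-coding genes, so they are taken as coding lengths; the other lengths, which enter the median per kilobase over all rows, may hold introns or other bases. edgeR 4.0.16 in R 4.3.3 fitted the whole table (quasi-likelihood test, TMM, filterByExpr with minimum count 10 and minimum total 15, genotype as the only term), two-sided, with Benjamini-Hochberg adjustment over 5133 rows and a threshold of 0.05. The standard error is the size of the log2 fold change divided by the square root of F. The procedure was tested on simulated data. The lowest count of any subunit gene was 187, where counting error alone is 7.31%. Replicate libraries differed by more than sampling noise (chi-square per degree of freedom at least 5.33).

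The 10 genes, the lists and the tests were chosen with earlier results of these data known. The genes named were the 10 subunit genes, the 3 genes with the smallest p-values among those called in each list, CDC45, TAH11 and the neighbours of called subunit genes. DBF4, SLD3, the other ORC genes, DPB3, MRC1, CTF4, MCM1, YOX1, YHP1, CLN3, CLB1, TRP1, GAL3 and SNQ2 were named after their values were seen, and shares within a complex were added then. Alternatives were DESeq2's size factors, upper quartile scaling, scaling by library size alone, DESeq2 1.42.0, limma-voom (limma 3.58.1), no row filter, a row filter of 10 CPM, a replicate block, leaving out each library and an adjusted p under 0.01. Promoter motifs and protein-based lengths were not analysed here.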

Additional observations from a re-analysis of the deposited data

How the results depend on the processing

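PSF1, PSF2 and MCM2 kept their direction and call in all 14 refits, with log2 fold changes of -0.83 to -0.70, -0.95 to -0.76 and 0.29 to 0.42 and adjusted p-values up to 0.00318, 0.00916 and 0.0372. MCM4 stayed negative but lost its call in 7 of 14 refits, and PSF3 stayed uncalled, with adjusted p-values from 0.250 to 0.872. With library size only, the uncalled MCM3, MCM5 and MCM7 turned to log2 fold changes of 0.033, 0.0029 and 0.012, by construction of a scaling that shifts all rows upward, and 2 subunit genes were called higher instead of 1. Of all rows, 2591 were called, 1824 to 2974 with 1 library left out (2974 without WT replicate 1), and 1660 at an adjusted p under 0.01. Of the subunit genes 3 to 6 were called with 1 library left out, 1 to 3 of them higher and 2 to 3 lower. The 3 higher calls came without WT replicate 1. Pathway genes called ranged from 6 to 16 and regulator genes from 1 to 3 with 1 library left out, and were 6 and 1 at an adjusted p under 0.01. Leaving out a library leaves fewer to compare. The per-kilobase orders in both genotypes were the same with library size only.

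Nothing in the labels says that a replicate number marks a pair. Deviations of same-numbered libraries from their group means correlated at 0.21, 0.21 and 0.09, and other pairs at -0.23 to 0.05, so each library correlated best with its own number, a hint from the data only. With the replicate block, 2630 rows, 3 subunit genes and 13 pathway genes were called, MCM4 being the subunit call lost.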
